A study of Mus musculus with 14 samples.

Results

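The platelet-derived growth factor (PDGF) ligand and receptor genes were followed across the aortic intima of mice with progerin, a shortened lamin A that causes Hutchinson-Gilford progeria, and in their controls. The family was taken as the rows of the count table whose symbol is Pdgfa, Pdgfb, Pdgfc, Pdgfd, Pdgfra or Pdgfrb, which gave 6 genes of 22430. All 6 had enough reads to be tested, and none was dropped by the filter on low counts. PDGF ligands are secreted dimers of A, B, C or D chains. They bind and pair the receptor tyrosine kinases PDGFRα and PDGFRβ, which then phosphorylate themselves and recruit Src kinases, phosphatidylinositol 3-kinase and phospholipase C. In arteries the endothelium is a known source of PDGF-B and PDGF-A. Smooth muscle cells, pericytes and fibroblasts carry the receptors and answer with growth and migration, a response long studied in atherosclerosis.

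RNA was sequenced from lysates of the inner layer of the thoracic aorta, and each library pooled 12 to 14 mice of a single genotype. All mice lacked apolipoprotein E (Apoe-/-), and their age is not given in the sources used here. Ubiquitous progerin mice (Apoe-/-LmnaG609G/G609G, 3 libraries) carry the G609G change in both Lmna copies and were set against wild-type controls (Apoe-/-Lmna+/+, 4 libraries). VSMC progerin mice (Apoe-/-LmnaLCS/LCS SM22Cre, 3 libraries) make progerin in vascular smooth muscle cells through a Cre recombinase under the SM22α promoter. They were set against Apoe-/-LmnaLCS/LCS mice without Cre, which make lamin C only (lamin C-only control, 4 libraries). The lamin C-only controls were also set against the wild-type controls. Pools are separate sets of animals, so the p-values measure the spread between pools.

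Libraries held 27169784 to 35692385 estimated counts. Levels are given as CPM, estimated counts scaled to library size, with library sizes adjusted by TMM. Progerin shares its gene with lamins A and C, so its transcript has no count of its own: Lmna averaged 118 CPM in ubiquitous progerin against 119 CPM in wild-type control, and 227 CPM in VSMC progerin against 132 CPM in lamin C-only control. The 8 endothelial markers summed to between 20470 and 24590 CPM in every library, more than any other cell type list, and none was at 0 in a group. Mitochondrially encoded genes took 11.5% to 12.1% of counts in VSMC progerin, 7.29% to 8.22% in ubiquitous progerin and 3.53% to 5.42% in the controls. Wild-type control pool 1 stood apart from all other libraries on the third principal component, at -65.0 against -7.75 to 14.4. In lysates of bulk tissue, fewer cells of a type and less RNA per cell cannot be told apart.

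Per kilobase of annotated exon, Pdgfd was the leading ligand in every group and Pdgfra was among the lowest of the 6 genes. Pdgfd averaged 29.1 ± 2.2 CPM per kb (SD, n = 3) in ubiquitous progerin and 50.4 ± 4.5 (n = 4) in wild-type control, with 39.2 ± 3.6 (n = 3) in VSMC progerin and 54.1 ± 2.0 (n = 4) in lamin C-only control. In wild-type control that placed it above 94.3% of the 14247 tested genes with an annotated length. Pdgfrb, Pdgfb and Pdgfa followed there at 21.45 ± 2.42, 19.1 ± 3.3 and 16.5 ± 0.9 CPM per kb, with overlapping libraries between Pdgfrb and Pdgfb and between Pdgfb and Pdgfa. Pdgfra and Pdgfc were far lower, at 0.675 ± 0.138 and 0.647 ± 0.190 CPM per kb, and could not be ranked against each other. The order of the middle 3 genes rests on the length used: with the longest annotated transcript in place of the union of exons, Pdgfb (26.96) and Pdgfa (24.9) stood above Pdgfrb (21.7) in wild-type control.

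The 4 ligand genes together reached 50.9 ± 3.1 CPM per kb in ubiquitous progerin and 86.6 ± 5.4 in wild-type control, and no library of either group reached the range of the other. They reached 79.2 ± 4.5 CPM per kb in VSMC progerin and 91.5 ± 2.7 in lamin C-only control, again without overlap. The makeup of that pool differed between the models. Pdgfa gave 10.6% ± 1.1 of ligand transcripts in ubiquitous progerin against 19.1% ± 2.3 in wild-type control, but 29.0% ± 4.1 in VSMC progerin against 18.1% ± 1.0 in lamin C-only control. Pdgfd kept the largest share, between 46.1% and 61.7% in every library with these lengths. Sums and shares rest on the length used. With the longest annotated transcript, Pdgfd averaged 39.5 and Pdgfa 34.9 CPM per kb in VSMC progerin, so their shares lay closer together. With that length Pdgfa stood above Pdgfd in VSMC progerin pool 1.

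**Figure D1:**
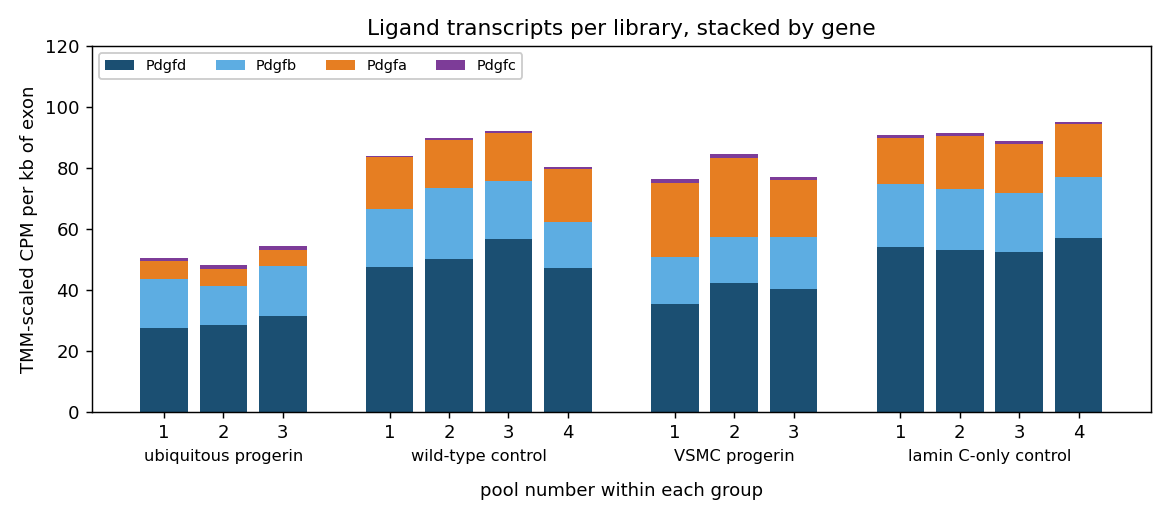
Level of the 4 ligand genes in each library, stacked, in TMM-scaled CPM per kb of annotated exon (vertical axis), with 1 bar per pool (horizontal axis). The 3 ubiquitous progerin bars reach 48.0 to 54.2, all below the 4 wild-type control bars at 80.4 to 92.2, and their Pdgfa segment is the shortest of all groups.

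The first comparison, of ubiquitous progerin with wild-type control, asks how the family differs where every cell can make progerin. Pdgfa and Pdgfd fell, Pdgfb fell slightly, Pdgfc rose from a low level, and neither receptor passed the test. With edgeR (quasi-likelihood F test, p-values adjusted by Benjamini-Hochberg across all genes), 3 of the 6 genes were lower and 1 was higher, 4 called in all. Of all 14269 genes tested, 28.3% were called lower, 26.3% higher and 54.6% in either direction, so calls were common at large. The ranges of 3 of the 6 genes did not overlap between the groups, as for 56.4% of all genes. The second comparison, of VSMC progerin with lamin C-only control, asks how the family differs where smooth muscle cells make progerin. There Pdgfa rose, while Pdgfb, Pdgfd and the receptor gene Pdgfrb fell, again 4 of 6 called, with 1 higher and 3 lower. Of all genes, 19.0% were called higher, 23.0% lower and 42.0% in either direction. The ranges of 4 of the 6 genes did not overlap, as for 45.5% of all genes. The 2 progerin effects differed for 3 of the 6 genes (1 higher and 2 lower in ubiquitous progerin relative to VSMC progerin), against 44.2% of all genes, 22.4% higher and 21.8% lower. Besides where progerin is made, the 2 comparisons differ in Lmna allele, in the lamins of their controls and in Cre. These cannot be told apart in a difference of effects. The median log2 fold change of the 6 genes was -0.26 in ubiquitous progerin and -0.18 in VSMC progerin, against -0.00497 and -0.0296 over all genes tested.

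**Figure D2:**
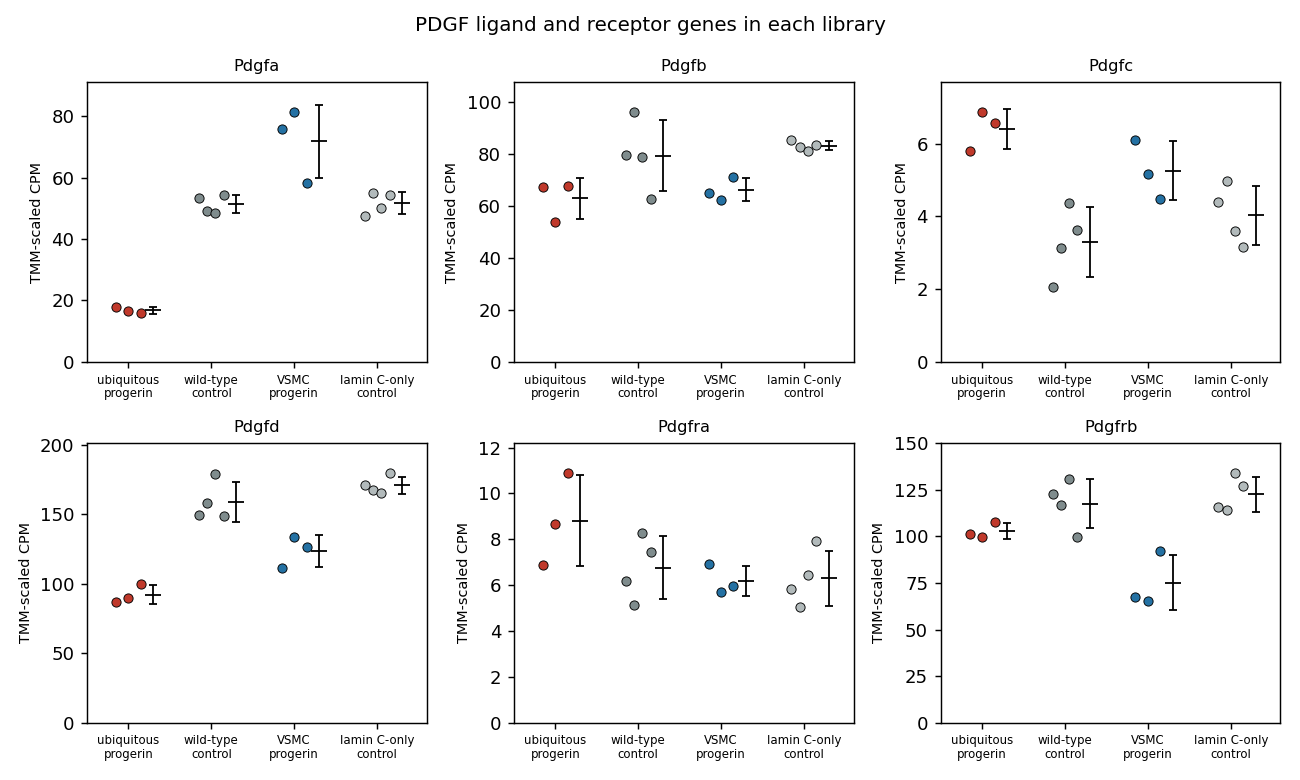
TMM-scaled CPM of each PDGF gene (vertical axes, linear from 0) in every library, by group (horizontal axes). Points are libraries, and the bar beside them is the mean with its SD. The 3 ubiquitous progerin points of Pdgfa lie at 15.8 to 17.9 CPM, below all others, and the 3 VSMC progerin points of Pdgfrb at 65.5 to 92.2 CPM, below all others.

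Pdgfa encodes the PDGF-A chain, which signals through PDGFRα (ENSMUSG00000025856, GRCm38 chromosome 5, 138976014 to 138997370, minus strand, 7 annotated transcripts of which 4 are coding). The RefSeq promoter table of build GRCm38.p6 matched 4 of the 6 genes. The windows of Pdgfa and Pdgfd are printed because these ligands had the lowest adjusted p-values of the family in ubiquitous progerin, and in VSMC progerin went opposite ways. Each window runs 5′ to 3′ on the strand of the gene, from 250 bases before to 50 after a transcript start, and capitals mark the hexamers GGGCGG (the GC box of Sp1-type factors) and TATAAA on either strand. The Pdgfa window is chr5:138994895-138995194 (minus strand) and the Pdgfd window is chr9:6168236-6168535 (plus strand).
Pdgfa promoter: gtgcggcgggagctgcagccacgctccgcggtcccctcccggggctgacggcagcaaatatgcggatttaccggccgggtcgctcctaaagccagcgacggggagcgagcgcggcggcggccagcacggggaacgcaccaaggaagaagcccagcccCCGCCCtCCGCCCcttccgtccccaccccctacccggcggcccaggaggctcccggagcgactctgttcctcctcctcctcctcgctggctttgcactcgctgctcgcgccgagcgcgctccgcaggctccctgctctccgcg
Pdgfd promoter: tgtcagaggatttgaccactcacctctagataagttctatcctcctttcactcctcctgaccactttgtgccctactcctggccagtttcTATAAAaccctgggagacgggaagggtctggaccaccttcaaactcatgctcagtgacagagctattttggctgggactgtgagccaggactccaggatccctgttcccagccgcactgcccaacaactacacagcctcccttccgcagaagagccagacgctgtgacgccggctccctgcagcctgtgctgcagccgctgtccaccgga
The Pdgfa window held 2 GC boxes, no TATAAA and 37 CpG dinucleotides, at percentile 94.4 of 32851 promoter windows, whose median was 7. A second Pdgfa start listed by RefSeq (chr5:138994232-138994531) had 24 CpG and 1 GC box. The Pdgfd window held 1 TATAAA, no GC box and 8 CpG, and the Pdgfc window (8 CpG) and the Pdgfra window (5 CpG) held neither hexamer. Among all windows 35.7% held a GC box and 13.6% held TATAAA, so these matches are common and describe the sequence only.

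Pdgfa stood at 17.9, 16.7 and 15.8 CPM in the ubiquitous progerin pools, against 53.5, 49.3, 48.4 and 54.3 CPM in the wild-type control pools. Every ubiquitous progerin pool lay under every control pool by more than the spread of either group. The log2 fold change was -1.61 ± 0.10 (SE), or 3.06-fold lower (adjusted p = 9.1e-11 by edgeR). In VSMC progerin the same gene stood at 75.8, 81.3 and 58.4 CPM, against 47.5, 55.2, 50.1 and 54.5 CPM in lamin C-only control. All 3 VSMC progerin pools were above the controls, with pool 3 closest to them. This gave a log2 fold change of 0.47 ± 0.09 (adjusted p = 0.00032 by edgeR). The effects of ubiquitous and VSMC progerin on Pdgfa differed by -2.08 ± 0.14 on the log2 scale, by a test of the difference itself with edgeR (adjusted p = 3.5e-10). An annotated gene on the opposite strand shares 813 exon bases with Pdgfa, and since the strand setting of the counting is not given, reads from it cannot be told apart. The same holds for Pdgfra, which shares 456 and 166 exon bases with 2 opposite-strand genes, and for Pdgfc, which shares 147 with another.

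Pdgfb encodes PDGF-B, the ligand by which endothelium recruits mural cells (ENSMUSG00000000489, chromosome 15, 79995874 to 80014977). Its level was 67.4, 53.9 and 67.8 CPM in ubiquitous progerin, against 79.7, 96.1, 78.9 and 62.8 CPM in wild-type control. Control pool 4 fell inside the range of the ubiquitous progerin pools, so the groups overlapped. The log2 fold change was -0.33 ± 0.11 (adjusted p = 0.018 by edgeR). That call ended with only the groups compared in the fit (adjusted p = 0.074), without wild-type control pool 2 (-0.23, adjusted p = 0.051) and without ubiquitous progerin pool 2 (-0.23, adjusted p = 0.099).

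In VSMC progerin, Pdgfb stood at 65.2, 62.5 and 71.2 CPM, against 85.4, 82.6, 81.4 and 83.4 CPM in lamin C-only control. The groups did not overlap, and the 4 controls lay close together. The log2 fold change was -0.33 ± 0.11 (adjusted p = 0.024 by edgeR). The call ended when limma was run on the authors' normalized table (-0.31, adjusted p = 0.061), and without lamin C-only control pool 1 (-0.31, adjusted p = 0.054) or VSMC progerin pool 1 (-0.29, adjusted p = 0.10) or 2 (-0.29, adjusted p = 0.096). The effects on Pdgfb in both models had a difference of -0.00 ± 0.15 on the log2 scale, with a 95% interval from -0.33 to 0.32.

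Pdgfb is best known from endothelium and platelets, so it was also set against Pecam1, an adhesion molecule of endothelial cells, within each library. Pecam1 is only 1 of the 8 endothelial markers, which did not move together. There were 0.00436 to 0.00581 Pdgfb reads per Pecam1 read in ubiquitous progerin and 0.00534 to 0.00853 in wild-type control. The ratio was 0.00693 to 0.00792 in VSMC progerin and 0.00710 to 0.00764 in lamin C-only control. Groups overlapped in both comparisons (two-sided exact permutation test, p = 0.17 and p = 0.57, where 3 against 4 pools can reach 0.057 at the lowest; adjusted p = 0.37 and 0.71 over the 15 ratio comparisons made). In VSMC progerin Pecam1 itself had a log2 fold change of -0.36 ± 0.05 (edgeR, adjusted p = 1.0e-05). Of the other markers, Tek, Emcn and Egfl7 were also called lower there (-0.23, -0.56 and -0.20). Tie1, a receptor kinase of endothelium, Cldn5, a tight junction protein, and Vwf, von Willebrand factor, were called higher (0.82, 0.53 and 0.22). In ubiquitous progerin Pecam1 did not pass the test (0.04). There Tek, Cdh5, Cldn5, Vwf and Tie1 were called lower (-1.30, -0.62, -0.59, -0.51 and -0.31), and Emcn and Egfl7 higher (1.17 and 0.24). The ratio to Pecam1 therefore does not stand for a ratio to the whole list.

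Pdgfc encodes PDGF-C, a ligand that proteases must cut before it can bind (ENSMUSG00000028019, chromosome 3, 81036416 to 81214040). It rested on 58 to 188 estimated counts per library. It stood at 5.80, 6.86 and 6.56 CPM in ubiquitous progerin, against 2.06, 3.14, 4.36 and 3.62 CPM in wild-type control. All 3 ubiquitous progerin pools were above all controls, of which pool 1 was lowest. Pdgfc had a log2 fold change of 0.96 ± 0.24 (adjusted p = 0.0018 by edgeR). VSMC progerin pools had 6.10, 5.15 and 4.49 CPM, against 4.39, 4.97, 3.61 and 3.16 CPM in lamin C-only control. These ranges overlapped, and the log2 fold change of 0.38 ± 0.23 did not pass the test (adjusted p = 0.21 by edgeR, 95% interval from -0.11 to 0.87).

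Pdgfd encodes PDGF-D, a protease-activated ligand of PDGFRβ (ENSMUSG00000032006, chromosome 9, 6168584 to 6378850). It stood at 86.6, 89.6 and 99.6 CPM in ubiquitous progerin, against 149, 158, 179 and 149 CPM in wild-type control. The groups were far apart, with a log2 fold change of -0.79 ± 0.08, or 1.73-fold lower (adjusted p = 3.5e-08 by edgeR). In VSMC progerin it stood at 111, 133 and 127 CPM, against 171, 167, 165 and 180 CPM in lamin C-only control. These groups did not overlap either, with a log2 fold change of -0.46 ± 0.08, or 1.38-fold lower (adjusted p = 4.7e-05 by edgeR). Pdgfd fell more in ubiquitous progerin, by a further 0.32 ± 0.11 on the log2 scale (adjusted p = 0.017 for the difference by edgeR). That difference lost its call without VSMC progerin pool 2 (-0.27, adjusted p = 0.060).

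Pdgfra encodes PDGFRα, the receptor of PDGF-A and PDGF-C and a usual marker of fibroblasts (ENSMUSG00000029231, chromosome 5, 75152292 to 75198215). It stood at 6.89, 8.68 and 10.9 CPM in ubiquitous progerin, against 6.20, 5.13, 8.26 and 7.46 CPM in wild-type control. The groups overlapped, and the log2 fold change of 0.38 ± 0.20 did not pass the test (adjusted p = 0.11 by edgeR). It passed without ubiquitous progerin pool 1 (0.54, adjusted p = 0.046). VSMC progerin pools had 6.94, 5.69 and 5.95 CPM, against 5.81, 5.07, 6.43 and 7.91 CPM in lamin C-only control. The log2 fold change was -0.03 ± 0.20 (adjusted p = 0.93 by edgeR), with a 95% interval from -0.45 to 0.39.

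Pdgfrb encodes PDGFRβ, the receptor of PDGF-B and PDGF-D on mural cells (ENSMUSG00000024620, chromosome 18, 61045150 to 61085061). It was the more abundant receptor, with 94.7% to 97.7% of receptor transcripts per kb in every library. It stood at 67.6, 65.5 and 92.2 CPM in VSMC progerin, against 116, 114, 134 and 127 CPM in lamin C-only control. VSMC progerin pool 3 was nearest the controls and still under all of them. It had a log2 fold change of -0.71 ± 0.11, or 1.63-fold lower (adjusted p = 0.00011 by edgeR).

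In ubiquitous progerin, Pdgfrb stood at 101, 99.6 and 108 CPM, against 123, 117, 131 and 99.6 CPM in wild-type control. The groups overlapped through control pool 4, and the log2 fold change of -0.19 ± 0.11 did not pass the test (adjusted p = 0.16 by edgeR). It passed without wild-type control pool 4 (-0.26, adjusted p = 0.045). The effects of ubiquitous and VSMC progerin on Pdgfrb differed by 0.52 ± 0.16 on the log2 scale, with the deeper fall in VSMC progerin (adjusted p = 0.014 for the difference by edgeR). That difference lost its call without VSMC progerin pool 1 (0.43, adjusted p = 0.056).

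**Figure D3:**
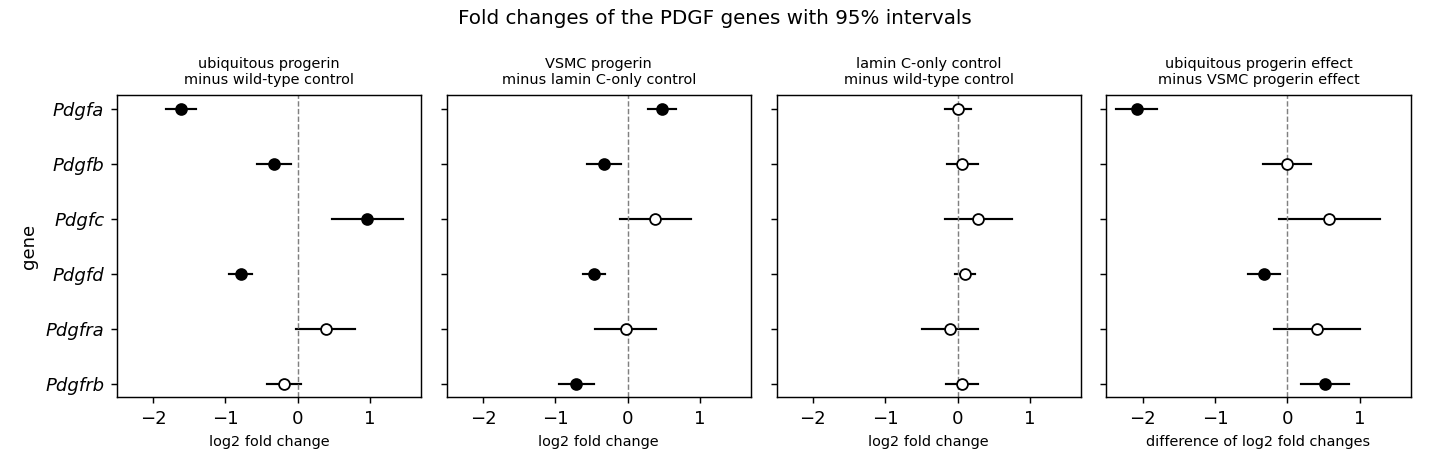
Log2 fold change of each PDGF gene (rows) with its 95% interval in the 3 comparisons, and the difference of both progerin effects at the right (horizontal axes). Filled points passed the test at an adjusted p under 0.05, open points did not. Pdgfa lies left of 0 in ubiquitous progerin, at -1.61, and right of 0 in VSMC progerin, at 0.47, while all 6 points are open in lamin C-only control against wild-type control.

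The receptor-bearing cell types were read from their markers in the same libraries. Of all genes tested, 26.3% were called higher and 28.3% lower in ubiquitous progerin, and 19.0% higher and 23.0% lower in VSMC progerin. These shares stand beside every count of called markers below. The 8 smooth muscle markers summed to 318 to 383 CPM in VSMC progerin against 398 to 561 CPM in lamin C-only control, with 3 of 8 called lower and 0 higher by edgeR. They summed to 936 to 983 CPM in ubiquitous progerin against 492 to 830 CPM in wild-type control, with 1 higher, Tagln, and 3 lower. Tagln, the gene of SM22α, alone averaged 774 CPM in ubiquitous progerin against 258 CPM in wild-type control. Myh11, the smooth muscle myosin heavy chain, averaged 3.88 ± 1.04 CPM in VSMC progerin against 14.2 ± 1.7 CPM in lamin C-only control, and 5.90 ± 1.47 CPM in ubiquitous progerin against 14.7 ± 9.2 CPM in wild-type control. Both values of Myh11 passed as lower (log2 fold changes -1.88 and -1.32).

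The 8 fibroblast markers summed to 2309 to 2539 CPM in VSMC progerin against 620 to 960 CPM in lamin C-only control, with 7 of 8 higher. They summed to 556 to 639 CPM in ubiquitous progerin against 656 to 791 CPM in wild-type control, with 0 higher and 2 lower. The 8 pericyte markers were low, and summed to 16.2 to 19.2 CPM in VSMC progerin against 7.02 to 11.1 CPM in lamin C-only control, without overlap. Of the 6 with enough counts to be tested, 1 was called higher there, Abcc9, a potassium channel subunit (log2 fold change 1.16 ± 0.39, edgeR, adjusted p = 0.023), and 0 lower. Rgs5 had the largest mean of the 6 tested in VSMC progerin, at 7.3 CPM against 1.7 CPM in lamin C-only control. It did not pass the test (edgeR, adjusted p = 0.125), and Notch3 had a lower mean (1.2 against 1.7 CPM). The pericyte markers summed to 5.56 to 11.8 CPM in ubiquitous progerin against 6.15 to 25.8 CPM in wild-type control, with 0 higher and 2 lower. None of the 8 was at 0 in all libraries of a group. In VSMC progerin, where Pdgfrb fell, 3 of 8 smooth muscle markers were thus lower, and 7 of 8 fibroblast markers were higher. Only 1 of 6 tested pericyte markers was called higher there, against 19.0% of all genes. Pdgfra averaged 6.19 CPM in VSMC progerin against 6.30 CPM in lamin C-only control. The part of any of these cell types in the receptor levels was not tested.

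For the ligands, the 8 endothelial markers summed to 20470 to 21490 CPM in ubiquitous progerin against 22810 to 24590 CPM in wild-type control, and to 21690 to 22520 CPM in VSMC progerin against 21930 to 23980 CPM in lamin C-only control. Of the 8, 2 were higher and 5 lower in ubiquitous progerin, and 3 were higher and 4 lower in VSMC progerin. Pecam1 and Vwf made up most of the endothelial sum, at 11950 and 5094 CPM in ubiquitous progerin and 11610 and 7244 CPM in wild-type control. Smaller parts moved both ways: Tek averaged 503 against 1243 CPM and Emcn 256 against 114 CPM in these groups. The 8 macrophage markers summed to 583 to 781 CPM in ubiquitous progerin against 38.1 to 56.2 CPM in wild-type control, and to 370 to 446 CPM in VSMC progerin against 36.9 to 81.1 CPM in lamin C-only control, with 8 of 8 higher in both. The 8 platelet markers summed to 32.9 to 42.4 CPM in ubiquitous progerin against 10.8 to 12.97 CPM in wild-type control, and to 19.4 to 52.7 CPM in VSMC progerin against 9.71 to 25.8 CPM in lamin C-only control, with 3 and 2 of 7 tested genes higher. Of these, Pf4, a platelet chemokine that macrophages can also make, rose by 2.80 ± 0.43 and 1.69 ± 0.42 on the log2 scale. In ubiquitous progerin Itga2b and Pf4 averaged 18.75 and 14.5 CPM, most of the mean platelet sum of 37.9 CPM. Ppbp and Gp9 had lower means there than in wild-type control (1.5 against 2.6 CPM and 0.60 against 0.76 CPM), and neither passed the test. The part of these cell types in the ligand levels was not tested.

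**Figure D4:**
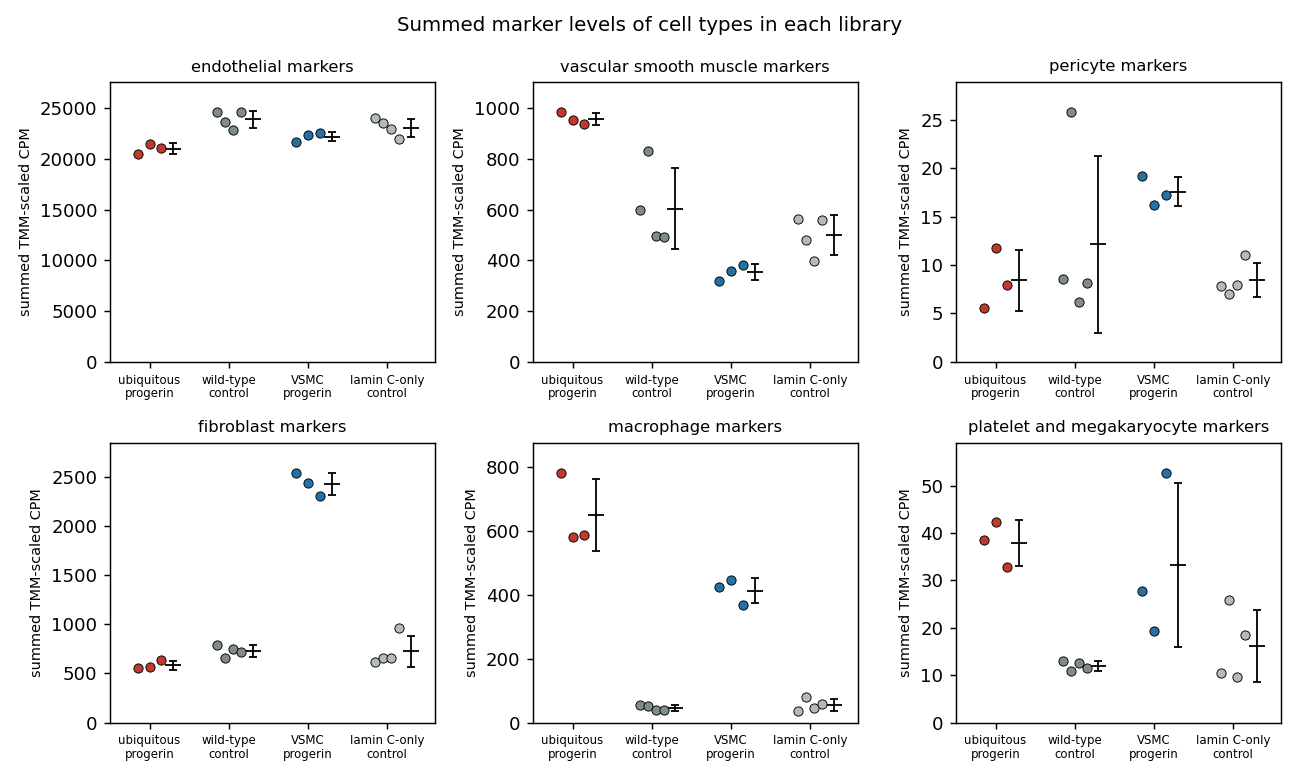
Summed TMM-scaled CPM of the marker genes of 6 cell types (vertical axes, linear from 0) in every library, by group (horizontal axes). Points are libraries, and the bar beside them is the mean with its SD. Fibroblast markers lie at 2309 to 2539 CPM in VSMC progerin and at no more than 960 CPM elsewhere, and macrophage markers are high in both progerin groups.

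Ratios of reads within a library do not depend on how libraries are scaled. There were 0.233 to 0.310 Pdgfa reads per Pdgfb read in ubiquitous progerin and 0.513 to 0.865 in wild-type control, and 0.821 to 1.301 in VSMC progerin and 0.557 to 0.668 in lamin C-only control. Neither pair of groups overlapped, and in 3 of 3 pools of each model the ratio was past all its controls, on opposite sides. Pdgfrb gave 9.72 to 15.5 reads per Pdgfra read in VSMC progerin and 16.02 to 22.5 in lamin C-only control, without overlap. Pdgfb gave 0.772 to 0.964 reads per Pdgfrb read in VSMC progerin and 0.607 to 0.739 in lamin C-only control, also without overlap. Each of these 4 had p = 0.057 by the two-sided exact permutation test, the smallest that 3 against 4 pools allow, and adjusted p = 0.21 over the 15 ratio comparisons. With 3 against 4 pools this test cannot reach 0.05 for a ratio. The groups overlapped in every other ratio comparison. Pdgfrb gave 9.89 to 14.66 reads per Pdgfra read in ubiquitous progerin and 13.32 to 22.71 in wild-type control. Pdgfb gave 0.541 to 0.666 reads per Pdgfrb read in ubiquitous progerin and 0.603 to 0.823 in wild-type control. The ratio of Pdgfd to Pdgfb overlapped in both models, and every ratio overlapped between lamin C-only control and wild-type control.

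The third comparison, of lamin C-only control with wild-type control, bears on the loss of lamin A without progerin. No member of the family passed the test: by edgeR 0 of 6 were called, 0 had an unadjusted p under 0.05, and 0 were called by DESeq2. Of all genes, 0.175% were called, 0.0911% higher and 0.0841% lower. All 6 genes had overlapping ranges, while 4.97% of all genes did not overlap. The widest 95% interval was that of Pdgfc, from -0.17 to 0.75 on the log2 scale around 0.29, and the narrowest that of Pdgfd, from -0.04 to 0.25 around 0.10.

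Across the 4 groups, the order of mean levels had few gaps. Pdgfa was highest in VSMC progerin (71.8 ± 11.9 CPM) and lowest in ubiquitous progerin (16.8 ± 1.1), with the overlapping controls between them (51.8 ± 3.7 in lamin C-only, 51.4 ± 2.9 in wild-type). Pdgfd was lowest in ubiquitous progerin (91.9 ± 6.8), next in VSMC progerin (124 ± 11) and highest in the overlapping controls, and the progerin groups overlapped neither each other nor the controls. Pdgfrb was apart only in VSMC progerin (75.1 ± 14.8), below ubiquitous progerin (103 ± 4). For Pdgfb, Pdgfc and Pdgfra, every group overlapped its neighbour in the order.

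Genes with the most similar pattern were sought by Pearson's r of log2 CPM over the 14 libraries among 10515 genes, as a description of libraries that share these 4 groups. The closest to Pdgfa were Ecscr, Galnt10 and Rhoj (r = 0.993, 0.992 and 0.990). Those closest to Pdgfd were Fundc2, Fam3c and Ackr3 (0.970, 0.969 and 0.968), and those closest to Pdgfrb were Mtx3, C1qtnf7 and Cadps2 (0.962, 0.959 and 0.957). Pdgfb, Pdgfc and Pdgfra had no gene above 0.875, 0.909 and 0.836, with Ephb6, Parl and Grpel1 in first place. Among the members themselves, Pdgfd and Pdgfb had the highest r (0.747), and Pdgfa and Pdgfrb had an r of -0.232.

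The other genes of the pathway were described by lists of ligand processing, receptor signalling, phosphatases and regulators, induced genes and transcription factors. Every count of called genes in these lists stands beside the shares over all genes tested. Those were 26.3% higher and 28.3% lower in ubiquitous progerin (54.6% in either direction), and 19.0% higher and 23.0% lower in VSMC progerin (42.0%). Several lists lay near or below these shares. Ligand-processing and PDGF-binding genes were higher in 5 and lower in 2 of 10 in ubiquitous progerin, and higher in 5 and lower in 1 of 10 in VSMC progerin, with medians of 0.23 and 0.25 on the log2 scale. Plat, tissue plasminogen activator, which activates PDGF-C, rose to 951 CPM in ubiquitous progerin, against 445 CPM in wild-type control (log2 fold change 1.10 ± 0.11), and to 629 CPM in VSMC progerin, against 425 CPM in lamin C-only control (0.57 ± 0.11). Furin, a convertase that cuts the A and B precursors, rose by 0.36 ± 0.06 in ubiquitous progerin and 0.17 ± 0.06 in VSMC progerin.

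The proteases that can activate PDGF-D rose in VSMC progerin. Plau, urokinase, averaged 13.7 CPM in VSMC progerin against 5.49 CPM in lamin C-only control (1.32 ± 0.17). Plau was also higher in ubiquitous progerin, at 6.62 CPM against 4.62 CPM in wild-type control (0.52 ± 0.17, edgeR, adjusted p = 0.016). St14, matriptase, averaged 52.1 CPM in VSMC progerin against 2.91 CPM in lamin C-only control (4.16 ± 0.24). In ubiquitous progerin St14 averaged 2.75 CPM and 3.47 CPM in wild-type control, which did not pass the test (adjusted p = 0.32), and the difference of both effects on it was -4.49 (adjusted p = 1.0e-07 by edgeR). Sparc, a matrix glycoprotein that binds PDGF-B, went opposite ways, with 702 CPM in ubiquitous progerin against 1104 CPM in wild-type control (log2 fold change -0.65 ± 0.05), but 3656 CPM in VSMC progerin against 1104 CPM in lamin C-only control (1.73 ± 0.05). The difference of both effects on Sparc was -2.38 (adjusted p = 5.4e-15 by edgeR). Nrp1, a coreceptor, fell by 0.65 in VSMC progerin.

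Of the 20 receptor-proximal transducers, 6 were higher and 8 lower in ubiquitous progerin (median -0.01), and 2 were higher and 7 lower in VSMC progerin (median -0.05). The adaptor gene Nck1 averaged 59.0 CPM in ubiquitous progerin against 128 CPM in wild-type control (log2 fold change -1.12 ± 0.09). Its relative Nck2 averaged 35.5 CPM in VSMC progerin against 61.1 CPM in lamin C-only control (-0.78 ± 0.07), and was also lower in ubiquitous progerin (-0.26 ± 0.07). Pik3r1, a regulatory subunit of phosphatidylinositol 3-kinase, and Stat3 rose by 0.72 ± 0.08 and 0.43 ± 0.05 in ubiquitous progerin, and Stat3 rose by 0.19 ± 0.05 in VSMC progerin. Gab1, a docking protein, fell by 0.53 in VSMC progerin, and Stat5b fell by 0.37 in ubiquitous progerin and by 0.48 in VSMC progerin.

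Of 12 genes listed as phosphatases and negative regulators, 8 were higher and 2 lower in ubiquitous progerin (median 0.36). In VSMC progerin 4 were higher and 0 lower (median 0.12). The list is not of inhibitors alone, as it holds a scaffold, Slc9a3r1, so these counts do not measure inhibition of the receptors. Ptpn1, a phosphatase that acts on PDGF receptors, rose in both, by 0.40 ± 0.06 and 0.62 ± 0.06. Socs3, a cytokine feedback inhibitor, averaged 31.6 CPM in ubiquitous progerin against 11.2 CPM in wild-type control, and 32.8 CPM in VSMC progerin against 10.4 CPM in lamin C-only control. Ptpn6, a phosphatase mostly of blood cells, averaged 20.02 CPM in ubiquitous progerin against 2.17 CPM in wild-type control, and 20.5 CPM in VSMC progerin against 2.39 CPM in lamin C-only control, beside the macrophage markers given above. Slc9a3r1, a scaffold that binds PDGF receptors, rose by 1.45 ± 0.09 in ubiquitous progerin, and its log2 fold change of -0.05 in VSMC progerin did not pass the test.

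Genes that PDGF is known to induce in mesenchymal cells were mixed, with 5 of 16 higher and 5 lower in ubiquitous progerin (median 0.09), and 7 higher and 3 lower in VSMC progerin (median 0.50). Vegfa, an endothelial growth factor gene, fell in ubiquitous progerin (-0.65 ± 0.10) and rose in VSMC progerin (0.94 ± 0.10), with a difference of -1.59 (adjusted p = 9.8e-08 by edgeR). Myc and the matricellular gene Ccn1 fell in ubiquitous progerin, with log2 fold changes of -0.78 and -2.07. Myc was also lower in VSMC progerin (-0.56 ± 0.12), and the difference of both effects on it did not pass the test (-0.22, edgeR, adjusted p = 0.30). In VSMC progerin Junb and the ERK phosphatase gene Dusp6 rose by 1.06 ± 0.11 and 0.82 ± 0.11, and Ier3 fell by 0.82. In ubiquitous progerin Junb and Ier3 were both higher (0.53 ± 0.11 and 0.37 ± 0.11). These genes answer to many signals besides PDGF.

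Of 9 tested transcription factors tied to PDGF genes, 1 was higher and 3 lower in ubiquitous progerin (median 0.08), and 3 were higher and 2 lower in VSMC progerin (median 0.18). Ets1 averaged 35.3 CPM in ubiquitous progerin against 25.96 CPM in wild-type control, and 76.4 CPM in VSMC progerin against 28.8 CPM in lamin C-only control. Klf2, the flow-responsive factor of endothelium, averaged 188 CPM in ubiquitous progerin against 361 CPM in wild-type control, but 594 CPM in VSMC progerin against 384 CPM in lamin C-only control, with a difference of effects of -1.57 (adjusted p = 0.00019 by edgeR). Hif1a followed the same directions (-0.55 ± 0.06 and 0.48 ± 0.06). Srf, which drives smooth muscle genes, had log2 fold changes of -1.10 and -0.58, and Sp1, a factor of GC boxes, fell by 0.27 in VSMC progerin. Egr1 did not pass the test in either model (0.21 and 0.18). In lamin C-only control against wild-type control, 0 genes of any of these lists were called by edgeR, and 0 to 3 per list had an unadjusted p under 0.05.

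**Figure D5:**
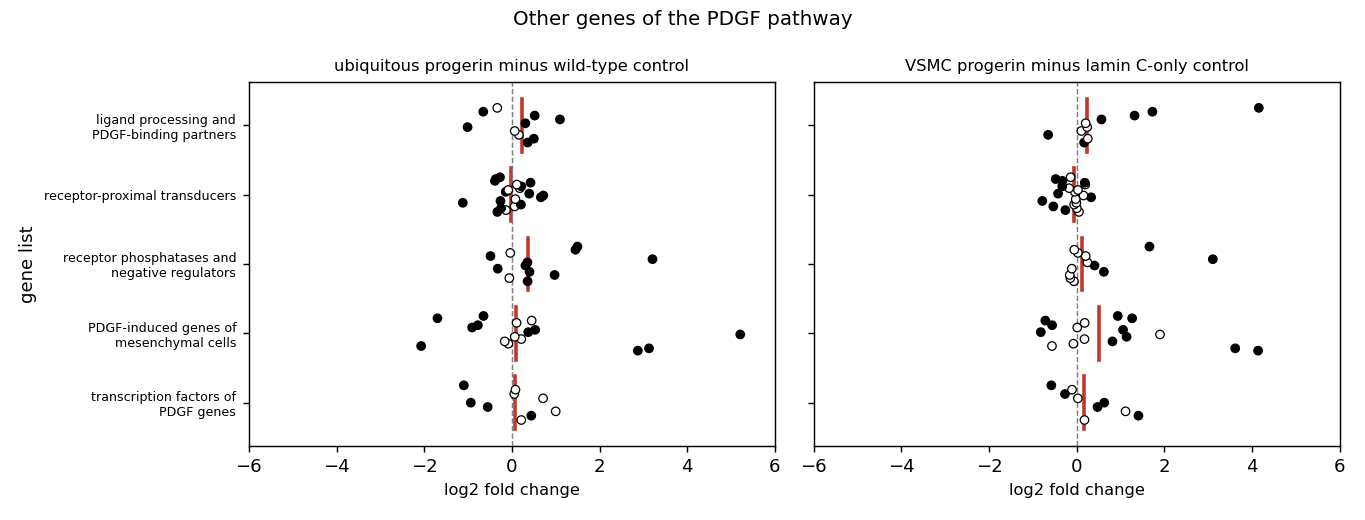
Log2 fold change (horizontal axes) of the tested genes of 5 pathway lists (rows) in ubiquitous progerin against wild-type control and in VSMC progerin against lamin C-only control. Filled points passed the test at an adjusted p under 0.05, open points did not, and red lines mark list medians, which lie between -0.01 and 0.36 at the left and between -0.05 and 0.50 at the right.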

How the data were processed

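RNA was measured in 14 libraries of aortic intima, made from 100 ng of total RNA by poly(A) selection and a directional kit, per the labels' protocols. The authors deposited 2 tables: expected counts (estimated, not all whole) for each gene, and normalized log2 values for 13034 genes. The submitters' processing notes name STAR 2.7.10b, RSEM 1.2.28, cutadapt 4.1, Trim Galore 0.6.10, limma and build GRCm38. Their annotation release and strand setting are not given here. RSEM divides reads shared between transcripts by a model, and gene counts hold no isoforms.

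Counts were rounded, filtered with filterByExpr (minimum count 10, total 15, share 0.7; 14269 of 22430 genes kept), scaled by TMM and tested with edgeR 4.0.16 (R 4.3.3) in a single fit of all libraries, adjusted by Benjamini-Hochberg, and called at an adjusted p under 0.05. DESeq2 1.42.0, limma 3.58.1 on counts and on the deposited log2 values, other scalings, filters and left-out libraries were alternatives. The test was tried on simulated data. Lengths and positions came from GENCODE M21 (GRCm38), which matched 22311 identifiers. The log2 likeness used a prior count of 2 and genes whose mean log2 CPM reached 2. Named genes are the 6 members, up to 4 called genes with the smallest p per pathway list, and marker sums with up to 2 genes. Lmna, Egr1, Kit, Sox10, Cldn5, Vwf, Emcn, Egfl7, Rgs5, Notch3, Ppbp and Gp9 were added after their values were seen. So were values of a named gene in comparisons where it did not rank. The members and lists were chosen with earlier results of these data known. The values of 1 gene of the list of PDGF-induced genes are not reported here.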

Additional observations from a re-analysis of the deposited data

Results flagged for a closer look

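Among the PDGF genes, the effects on 3 differed between the 2 models by edgeR's test of the difference itself, with Benjamini-Hochberg adjustment over all genes. The share over all genes was 44.2%. Where progerin is made cannot be told apart here from the Lmna allele, the control and Cre, which differ too. For Pdgfa the effect of ubiquitous progerin minus that of VSMC progerin was -2.08 on the log2 scale, lower in 3 of 3 ubiquitous progerin pools and higher in 3 of 3 VSMC progerin pools than in all their controls. For Pdgfd it was -0.32, and for Pdgfrb it was 0.52. The 22 sets of 4 control values examined, for the 6 genes and 5 ratios, held no outlying library by Dixon's test.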

How the results depend on the processing

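No count of called PDGF genes or pathway genes moved by over 1.5 times under any alternative run. In each progerin comparison 4 of 6 PDGF genes were called, so only a fall, and no rise, could pass that limit there. The calls of Pdgfa, Pdgfd and Pdgfc in ubiquitous progerin and of Pdgfa, Pdgfd and Pdgfrb in VSMC progerin held under all alternatives. The Pdgfb calls and 2 differences of effects that did not hold are given with their genes. Equal pool numbers did not pair libraries (their deviations from group means correlated between -0.046 and 0.023). With the number as a replicate block, Pdgfra (0.47, adjusted p = 0.039) and Pdgfrb (-0.22, adjusted p = 0.036) passed in ubiquitous progerin; the block changed no other call of a PDGF gene. Values near 0 that never passed changed sign. Pdgfra in VSMC progerin became 0.00383 with RLE size factors, 0.00377 with DESeq2, 0.00552 with the deposited log2 values, 0.00436 with only its groups, 0.000619 without mitochondrially encoded genes and 0.0813 with the replicate block. The Pdgfb difference of effects became 0.00803 with limma-voom, 0.00056 with the deposited values, 0.00578 with no filter and 0.00388 with the block. With single libraries left out, Pdgfra in VSMC progerin ran from -0.12 to 0.10 and the Pdgfb difference from -0.10 to 0.10. In lamin C-only control, Pdgfa ran from -0.019 to 0.0516, Pdgfb from -0.0289 to 0.174, Pdgfra from -0.229 to 0.00901 and Pdgfrb from -0.00841 to 0.119. The cause of these changes was not tested. Counts of all called genes in lamin C-only control were 25 by edgeR, 103 by DESeq2, 29 by limma-voom, 1 by limma on the deposited values, 40 with no filter and 16 with only the groups compared. With 1 library left out they ran from 8 (without lamin C-only control pool 3 or wild-type control pool 3) to 45 (without wild-type control pool 2), with 15 without lamin C-only control pool 2, and 13 and 12 without wild-type control pools 1 and 4; without lamin C-only control pool 1 there were 16. Pdgfc and Pdgfra rest on few counts, and 3 or 4 pools per group limit all intervals.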

Other observations

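The relatives of the family were also measured. Of all genes tested, 26.3% were called higher and 28.3% lower in ubiquitous progerin, and 19.0% higher and 23.0% lower in VSMC progerin. Of 5 genes of the VEGF family, which share the cystine-knot fold of PDGF, 4 were lower and 0 higher in ubiquitous progerin (median -0.74), and 1 was lower and 2 higher in VSMC progerin (median 0.05). Vegfc, a ligand of lymphatic endothelium, fell by 0.92 and Vegfb by 0.79 in ubiquitous progerin. In VSMC progerin Vegfb also fell, by 0.32, and Pgf, placental growth factor, rose by 1.38 ± 0.34. Of 6 related receptor tyrosine kinases, 2 were higher in ubiquitous progerin and 4 in VSMC progerin, with 0 lower in both. Csf1r, the receptor of the macrophage growth factor CSF1, averaged 95.5 CPM in ubiquitous progerin against 6.57 CPM in wild-type control, and 66.1 CPM in VSMC progerin against 7.19 CPM in lamin C-only control. The VEGF receptor genes Flt1, Kdr and Flt4 rose in VSMC progerin by 1.73 ± 0.17, 0.75 ± 0.14 and 0.80 ± 0.06. Kit averaged no more than 1.17 CPM in any group and did not pass the test.

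Markers of cell types with no set part in the family were summed as well. The 6 adipocyte markers summed to 1100 to 1390 CPM in VSMC progerin against 164 to 751 CPM in lamin C-only control, and to 302 to 569 CPM in ubiquitous progerin against 165 to 236 CPM in wild-type control. By edgeR, 5 of the 6 were called higher in VSMC progerin, but 0 were called in ubiquitous progerin. There Plin1 had the lower mean, at 2.63 CPM against 4.88 CPM in wild-type control. The 5 Schwann cell markers summed to 36.5 to 49.4 CPM in VSMC progerin against 13.6 to 18.0 CPM in lamin C-only control. In ubiquitous progerin they summed to 12.5 to 14.1 CPM and in wild-type control to 13.4 to 18.2 CPM. Sox10 was at 0 in all ubiquitous progerin libraries, but had too few counts over the groups to be tested. Of the 3 tested, 1 was called higher and 2 lower in ubiquitous progerin, and 2 higher in VSMC progerin. The 7 lymphocyte markers were low, at 9.53 to 11.6 CPM in VSMC progerin against 4.29 to 6.42 CPM in lamin C-only control, and at 1.63 to 4.36 CPM in ubiquitous progerin against 5.14 to 6.28 CPM in wild-type control, so the sums lay apart from their controls on opposite sides. Of 4 tested, 1 was called higher in VSMC progerin and 2 lower in ubiquitous progerin. The 5 lymphatic endothelial markers summed to 139 to 153 CPM in VSMC progerin against 76.7 to 89.2 CPM in lamin C-only control, and to 95.8 to 112 CPM in ubiquitous progerin against 73.8 to 80.7 CPM in wild-type control. By edgeR, 3 of the 5 were called higher in VSMC progerin. In ubiquitous progerin only 1 was, Lyve1, at 32.4 CPM against 8.68 CPM in wild-type control. Flt4, the largest part of the sum, averaged 68.2 CPM there against 68.6 CPM in wild-type control.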
